A study of Xenopus tropicalis with 36 samples.

Results

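The genes described here encode proteins of the cytoplasmic ribosome in Xenopus tropicalis, a diploid frog. They were taken by symbol from the deposited table of raw fragment counts. The rule took rows whose symbol begins with rpl or rps and a number, or is rplp0, rplp1 or rplp2. It does not take in rpsa, described as ribosomal protein SA, which held 1974895 fragments over all libraries. Family shares, subunit counts and subunit ratios below therefore leave rpsa out. Of 87 matching rows, 9 were rps6k kinases and were left out. The remaining 78 of 25774 genes comprise 48 of the large and 30 of the small subunit, with 77 distinct symbols because rpl30 has a gene model and a separate row built from expressed sequence tags. The directly assigned ontology terms of the deposited annotation name 77 of the 78 as structural constituents of the ribosome. By symbol, 75 are in a list of core subunit proteins. The other 3 are the paralogs rpl22l1 (of rpl22) and rpl3l (of rpl3) and the row labelled rps28p9. The annotation describes rps28p9 as ribosomal protein S28, and no member has the symbol rps28.

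Poly(A) RNA was sequenced from pools of 5 to 10 sibling embryos in 36 libraries, with 3 clutches for each of 6 conditions at stages 26 and 34 (tailbud). In the knockdown (KD) experiment, wild-type out-bred Nigerian embryos of frogs D, E and F were left uninjected (uni) or received, at the 1-cell stage, 18 ng of a standard control morpholino (cMO) or 18 ng of a mixture of splice- and translation-blocking morpholinos against t and t2 (t/t2 MO). In the knockout (KO) experiment, the offspring of crosses 1, 2 and 9 between te1.2D/+ t2e3.7D/+ frogs were wild-type (WT), te1.2D/+ t2e3.7D/+ (het) or homozygous at both genes (te1.2D/e1.2D with t2e3.7D/e3.7D, KO), and none carried a morpholino. The genes t and t2 encode Brachyury T-box factors of the mesoderm, and the question was how the loss of their function by either route changed the transcriptome.

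Ribosomal proteins assemble with ribosomal RNA in the nucleolus, and a cell needs them in fixed proportion to one another. Their mRNAs begin with a terminal oligopyrimidine tract that couples their translation to growth signals, and they are among the most abundant mRNAs of dividing cells. The frog egg carries a large store of ribosomes, and ribosomal protein synthesis resumes later in embryogenesis.

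Depth was 30225504 to 52401214 gene fragments per library (median 37215941). The targeted gene t2 had 0 to 4.05 normalised counts in KO and 636 to 992 in WT embryos, and 4.66 to 59.8 in t/t2 MO against 668 to 1489 in uninjected embryos. The summed share of 13 muscle markers, those found among 15 listed, was 1.24 to 1.8% of gene fragments in uninjected and 0.542 to 0.924% in t/t2 MO libraries, and 1.31 to 1.59% in WT and 0.637 to 0.742% in KO libraries. In RNA of whole embryos, fewer cells of a type and less RNA per cell cannot be told apart, and the part of this shift in the results below was not tested.

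Ribosomal protein genes together took 3.1 to 6.017% of the gene fragments of a library. The 95% Wilson interval of such a share, which covers counting error only, was at most 0.00813 percentage points to either side, so libraries differed by far more than counting error. At stage 26 the share was 3.506 ± 0.447% in uninjected (SD, n = 3 libraries throughout), 3.753 ± 0.0944% in cMO and 4.073 ± 0.23% in t/t2 MO embryos. At stage 34 it was 5.342 ± 0.202%, 5.004 ± 0.136% and 5.317 ± 0.29% in the same order. In the KO experiment it was 4.62 ± 0.641% in WT, 4.203 ± 0.135% in het and 4.151 ± 0.159% in KO embryos at stage 26, and 5.629 ± 0.6%, 5.592 ± 0.607% and 5.481 ± 0.302% at stage 34. Every clutch had a higher share at stage 34 than at stage 26 in every condition. The WT library of cross 1 at stage 26, at 5.324%, stood above the other WT libraries of that stage, which had 4.466% and 4.069%.

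**Figure D1:**
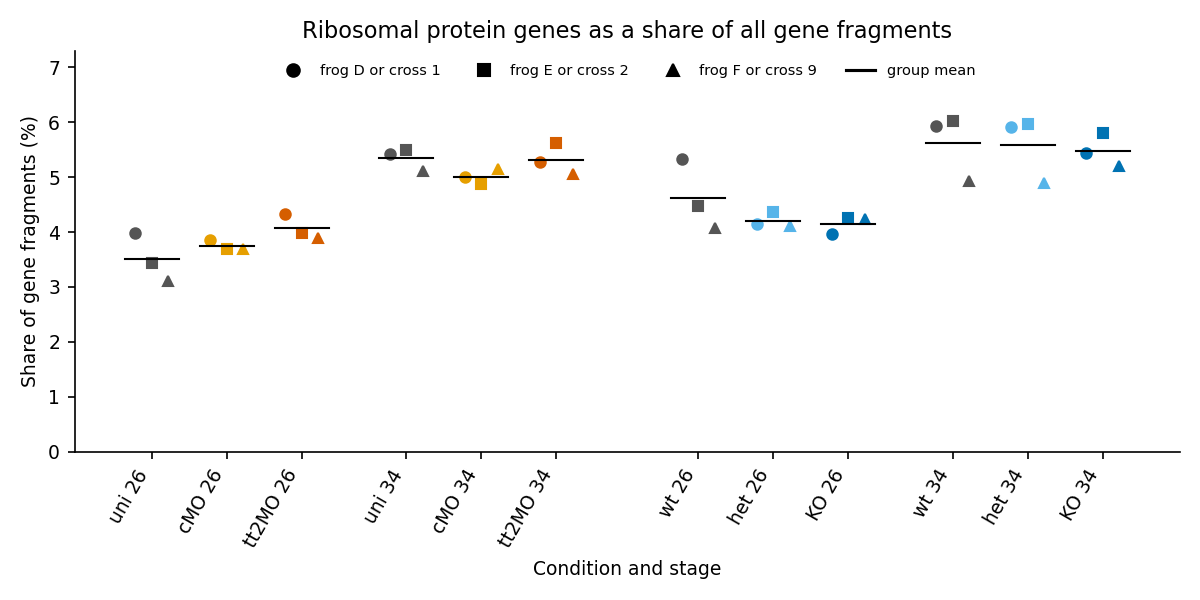
Share of gene fragments (%, axis from 0) on ribosomal protein genes in each of the 36 libraries, by condition and stage. Each symbol is a library and marks its clutch, and the line is the mean of the 3 libraries. All stage 34 groups have higher means than the stage 26 groups, and the WT library of cross 1 at stage 26 lies at 5.324%.

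The family is among the most abundant in the embryo. In uninjected embryos at stage 26 the median over 76 members with a gene model and a tested count was 372 fragments per kilobase of exon per 1000000 fragments (FPKM), against 5.56 FPKM over 17715 genes. Of the 177 genes that make up the top 1%, 48 were members, and 68 members were in the top 5%. In WT embryos of the same stage the median of the members was 496 FPKM, and 52 were in the top 1%.

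Among the highest levels per length in uninjected stage 26 embryos were those of rpl23a (1014 ± 99.8 FPKM), whose product lies at the exit of the peptide tunnel, and rpl7 (883 ± 87.6 FPKM). The lowest core members were rps27 (2.18 ± 0.57 FPKM), the rpl30 gene model (2.52 ± 0.306 FPKM) and rpl34 (3.96 ± 1.31 FPKM), followed by rpl32 (6.9 ± 5.3 FPKM). A pair of reads was counted where 1 gene alone could have given it, so near-identical copies lose fragments. An unnamed row described as ribosomal protein L32 held 412655 fragments over all libraries and one described as L34 held 40105, and neither matches the rule. The low levels of rpl32 and rpl34, and that of rpl30 with its 2 rows, are therefore uncertain. Whether rps27 also lost fragments in this way was not tested.

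**Figure D2:**
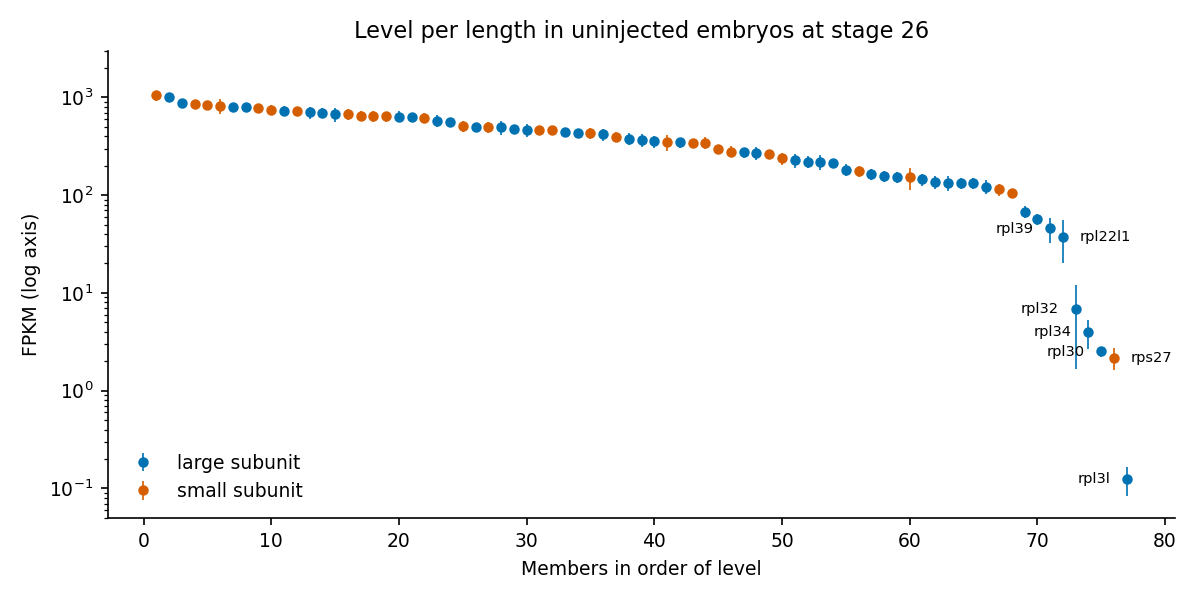
Level per length (FPKM, log axis) of the members with a gene model in uninjected embryos at stage 26, ordered from highest to lowest and coloured by subunit. Points are means and bars the SD of 3 libraries. The levels fall gradually over 68 members above 100 FPKM, and rpl32, rpl34, rpl30, rps27 and rpl3l lie below 10 FPKM.

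The paralog pairs were far from equal. The large subunit protein gene rpl22 stood at 269 ± 41 FPKM and rpl22l1 at 37.7 ± 17.3 FPKM in uninjected stage 26 embryos. The level of rpl3, which encodes a protein near the peptidyl transferase centre, was 797 ± 73 FPKM, while that of rpl3l, the paralog known from mammalian striated muscle, was 0.124 ± 0.041 FPKM. With 2 to 19 raw fragments per library, rpl3l was the only member below the count filter (mean normalised control count above 7), and it entered no count of members below. The row rps28p9 stood at 106 ± 11 FPKM.

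Conditions were compared with edgeR's quasi-likelihood test over all genes, at a false discovery rate (FDR) of 10%, and a gene was called where the change was also at least 1.5-fold. Normalised counts below are scaled by TMM to a common library size. In t/t2 MO against uninjected embryos, 3 of 77 members were called, all lower, where 15.2% of all genes were called in either direction and 8.58% lower. These were rpl22l1, rpl10a and rps9. All 3 stayed past the FDR with total counts without TMM, but rpl10a (-0.56) and rps9 (-0.51) then fell short of 1.5-fold, so that 1 was called. At any fold, 5 members rose and 6 fell (background 41.6%, 17.8% higher and 23.8% lower), and the median log2 fold change was 0.07 over the members and -0.03 over all genes. Most of the family thus stayed within a narrow band in this fit over both stages, with 60 of 77 fitted changes above 0. The stages differed, with medians over the members within frogs D, E and F of 0.08, 0.17 and 0.32 at stage 26. At stage 34 these medians were -0.07, 0.07 and -0.04.

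The paralog rpl22l1 lies on scaffold 5 of assembly v7.1, from 16044066 to 16049915 on the plus strand, with 4 exons in its longest transcript. At stage 26 its normalised counts were 2482, 1299 and 1103 in the uninjected embryos of frogs D, E and F, 1546, 1368 and 1135 with cMO and 1188, 896 and 818 with t/t2 MO. At stage 34 they were 3524, 3069 and 2934 in uninjected, 1855, 1670 and 1753 in cMO and 1239, 1208 and 997 in t/t2 MO embryos. The 3 conditions did not overlap at stage 34, while at stage 26 uninjected frog F lay below t/t2 MO frog D. The fold change of rpl22l1 was -1.14 on the log2 scale against uninjected embryos (SE 0.17, edgeR adjusted p = 3e-05) and -0.56 against cMO embryos (SE 0.17, adjusted p = 0.018), and it was negative in all 6 clutch-by-stage pairs of both comparisons. In cMO against uninjected embryos it was -0.57 (SE 0.17, adjusted p = 0.093). Its paralog rpl22 had 6084, 7285 and 6622 normalised counts in uninjected and 6867, 8021 and 6199 in t/t2 MO embryos at stage 34, ranges that overlap, and a fold change of 0.07 (SE 0.15, adjusted p = 0.77).

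The large subunit gene rpl10a (scaffold 1, 71760862 to 71767584, minus strand, 5 exons in the longest transcript) encodes a protein of the L1 stalk, where deacylated tRNA leaves the ribosome. It had 29272, 26334 and 21980 normalised counts in uninjected and 21125, 19358 and 18724 in t/t2 MO embryos at stage 26. At stage 34 it had 37774, 36278 and 34560 in uninjected, 29862, 28800 and 29202 in cMO and 20676, 20793 and 18748 in t/t2 MO embryos. All t/t2 MO libraries lay below all uninjected libraries of their stage, and the cMO libraries of stage 34 lay between them. The log2 fold change was -0.64 against uninjected (SE 0.08, adjusted p = 5.9e-06, edgeR), -0.45 against cMO (SE 0.08, adjusted p = 0.00038) and -0.19 for cMO against uninjected embryos (SE 0.08, adjusted p = 0.35). The decrease with t/t2 MO was found in 6 of 6 pairs.

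The small subunit gene rps9 (scaffold 7, 114448450 to 114450128, plus strand, 2 exons) encodes a protein near the entry of the mRNA channel that binds early in assembly. Its normalised counts were 11537, 9376 and 7971 in uninjected and 8332, 7617 and 6858 in t/t2 MO embryos at stage 26. They were 13740, 14648 and 13633 in uninjected, 10089, 8601 and 10514 in cMO and 8365, 8604 and 7310 in t/t2 MO embryos at stage 34. The t/t2 MO and uninjected libraries overlapped at stage 26 and not at stage 34. The log2 fold change was -0.59 against uninjected (SE 0.1, edgeR adjusted p = 0.00011, lower in 6 of 6 pairs), a size close to the 1.5-fold bound, and -0.31 against cMO embryos (SE 0.1, adjusted p = 0.023). Leaving out frog F ended the latter at the FDR (log2 fold change -0.2, adjusted p = 0.21).

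**Figure D3:**
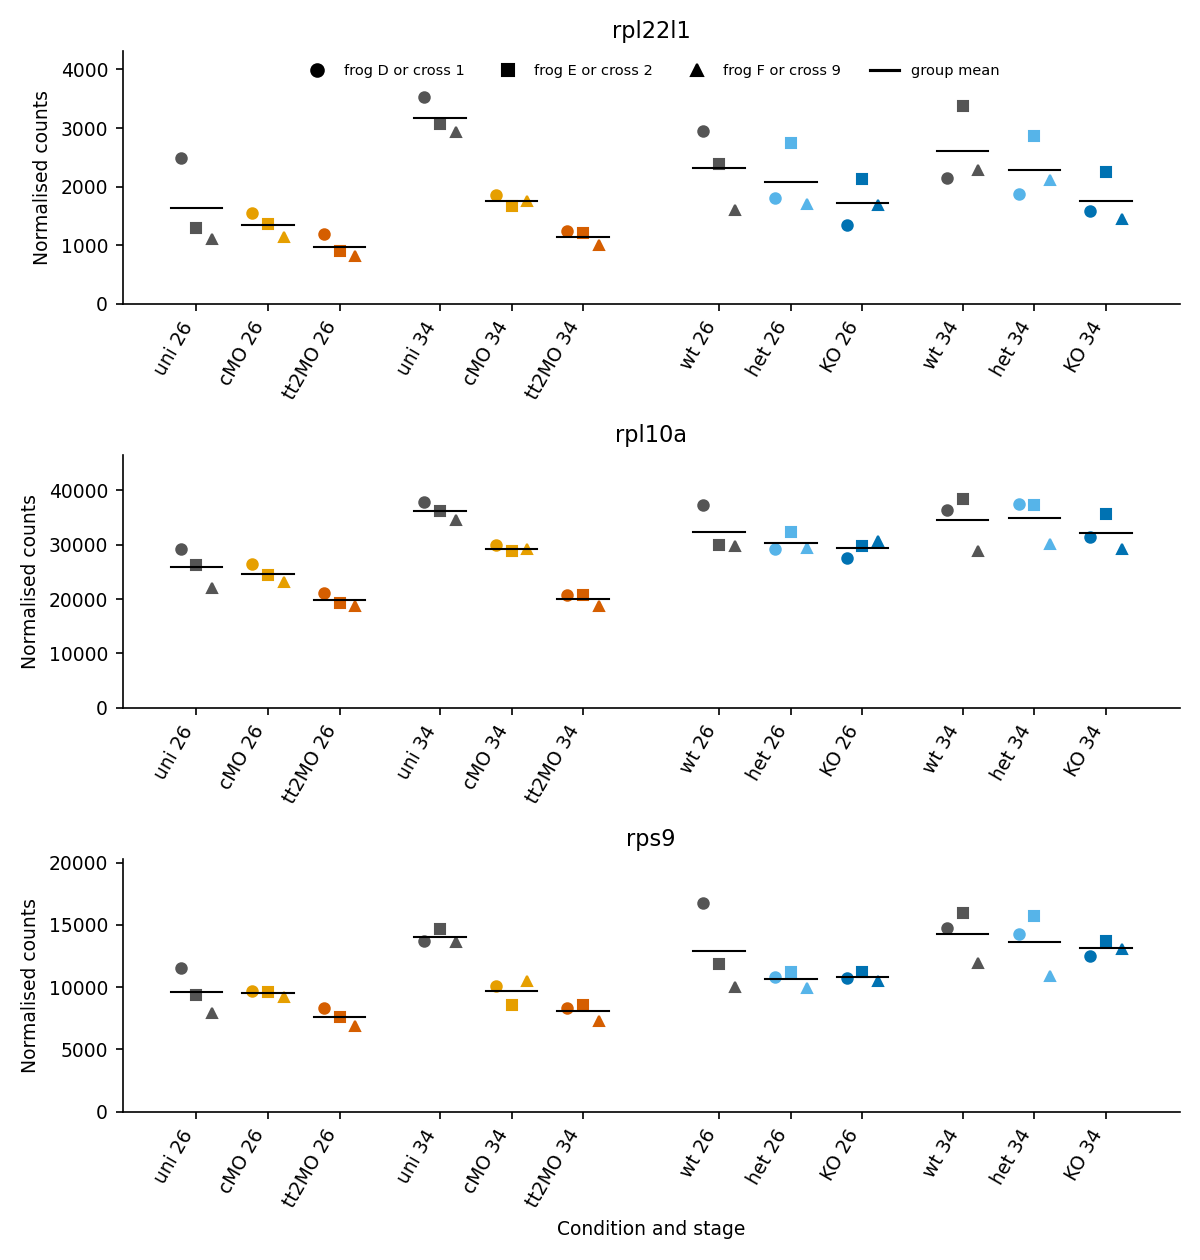
Normalised counts (axes from 0) of rpl22l1, rpl10a and rps9 in each library, by condition and stage, with the clutch marked by the symbol and the mean of 3 libraries as a line. At stage 34 the t/t2 MO libraries of all 3 genes lie below the uninjected libraries, whereas the KO and WT libraries of all 3 genes overlap.

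Further members fell with t/t2 MO by less than 1.5-fold. They were rpl12, of the GTPase-associated centre (log2 fold change -0.4, SE 0.15, adjusted p = 0.056, edgeR), rpl3 (-0.26, SE 0.07, adjusted p = 0.0098) and rps27a, whose product is made as a fusion with ubiquitin (-0.24, SE 0.07, adjusted p = 0.014). The gene model of rpl12 overlaps another one, and the counting did not use strand, so its fragments cannot be assigned with certainty. The members that rose were rpl28 (0.17), rps7 (0.16), rpl31 (0.15), rpl13a (0.14) and rps16 (0.13), with rpl28, rpl31, rpl13a and rps16 higher in 6 of 6 pairs. Their number rests on single clutches, with 9 members higher without frog D, 0 without frog E and 1 without frog F. At stage 26, 21 of 77 members lay above without overlap in t/t2 MO against uninjected embryos and 1 below (14.4% and 18.2% of all genes). At stage 34, 2 lay above and 12 below (21.6% and 25.4% of all genes).

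Against cMO embryos, 0 members were called in t/t2 MO embryos (background 13.6%), and DESeq2 called 0 (background 13.4%). In edgeR, 16 of 77 had an unadjusted p under 0.05 (44.2% of all genes). At any fold, 11 rose and 4 fell (background 39.3%, 17% higher and 22.3% lower), and the median log2 fold change was 0.08 over the members and -0.02 over all genes. The gene rps21 had the lowest adjusted p among those that rose, with 7465, 6898 and 7290 normalised counts in cMO and 9077, 8566 and 7568 in t/t2 MO embryos at stage 26, and 8802, 7278 and 9241 against 11243, 12611 and 11246 at stage 34. The groups did not overlap at either stage, and the log2 fold change was 0.32 (SE 0.07, adjusted p = 0.0023, edgeR). Against uninjected embryos, the mean within-frog log2 differences of rps21 were 0.18 and 0.14 in t/t2 MO embryos at stages 26 and 34. In cMO embryos they were -0.04 and -0.34. The log2 fold change of rpl38, whose product is known in mice to favour the translation of Hox mRNAs, was 0.45 (SE 0.17, adjusted p = 0.063). It rested on cMO frog E at stage 34, where rpl38 had 1946 normalised counts and the other 2 cMO libraries had 4320 and 3904. In that library the rank correlation of exon length with the deviation of its counts from the group mean was 0.55 over 76 members. It was -0.51 and -0.4 in the other 2 cMO libraries of stage 34, which share that mean. Another group reached a similar size, with -0.54 in t/t2 MO frog D at stage 26. The part of exon length in the value of rpl38 was not tested. Without cMO frog E at stage 34, 3 members rose against cMO embryos. The number was 1 without frog D, 1 without frog E and 19 without frog F. At stage 26, 37 of 77 members lay above the cMO libraries without overlap in t/t2 MO embryos and 5 below (14.7% and 17.6% of all genes). At stage 34, 23 lay above and 6 below (22.9% and 25% of all genes).

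In cMO against uninjected embryos, 0 members were called (background 1.42%) and 0 were called by DESeq2 (background 1.68%). In edgeR, 6 had an unadjusted p under 0.05, all lower (15.5% of all genes in either direction). Only rpl22l1, given above, passed the FDR (1 lower, background 3.99%, 2.13% lower), and not without frog D (log2 fold change -0.39, adjusted p = 0.34) or frog E (-0.64, adjusted p = 0.3). The median log2 fold change of the members over both stages was -0.01. It turned to 0.01 with total counts without TMM, to 0.03 without frog D, to 0.01 without frog E or without its cMO library of stage 34, and was -0.08 without frog F (6 of 77 positive). At stage 34, 36 of 77 members lay below the uninjected libraries without overlap and 0 above (10.8% and 11.7% of all genes), whereas at stage 26 there were 0 in either direction. The medians over the members within frogs D, E and F were -0.05, 0.08 and 0.22 at stage 26 and -0.08, -0.23 and -0.03 at stage 34. The comparisons of cMO and t/t2 MO with uninjected embryos share the uninjected libraries. Those of t/t2 MO with cMO and of cMO with uninjected embryos share the cMO libraries.

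**Figure D4:**
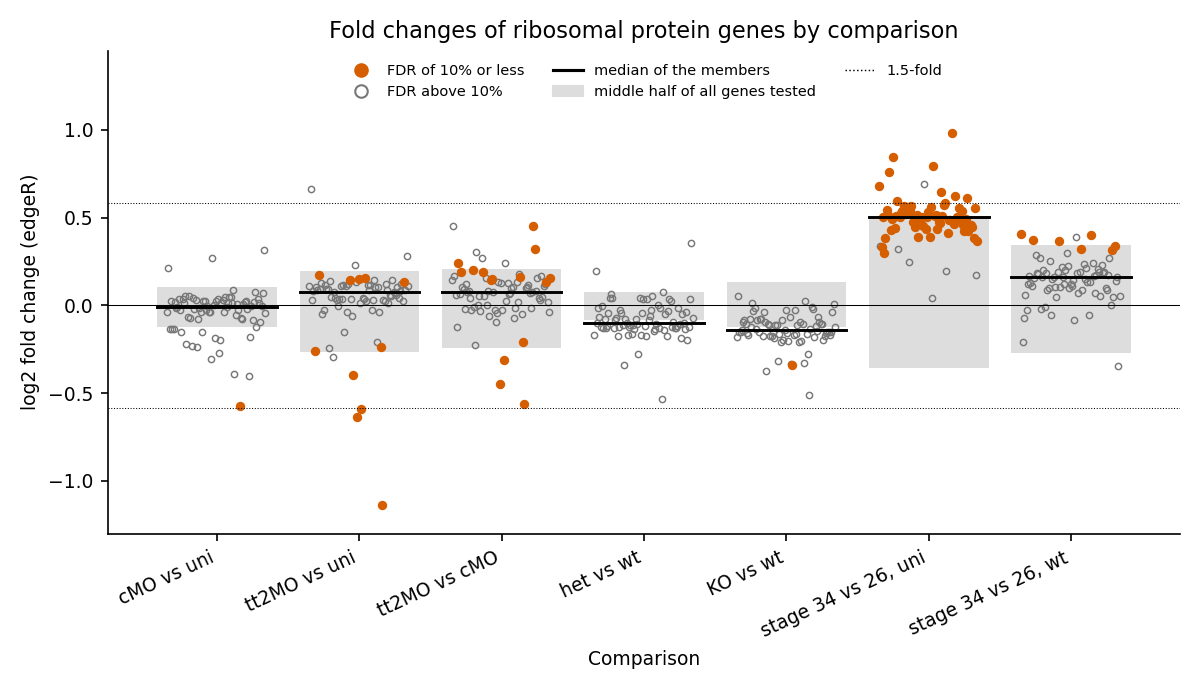
log2 fold changes (edgeR) of the 77 tested members in the 5 comparisons of conditions and in the comparison of stages in uninjected and WT embryos. Filled points passed the FDR of 10%, open points did not, thick lines are the medians of the members, grey boxes the middle part of all genes tested from the lower to the upper quartile, and dotted lines 1.5-fold. Most members lie close to their median, with rpl22l1, rpl10a and rps9 apart in t/t2 MO against uninjected embryos and all 77 above 0 for stage in uninjected embryos.

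In KO against WT embryos, 0 of 77 members were called, where 3.44% of all genes were. DESeq2 called 0 as well (background 3.51%), and 17 members had an unadjusted p under 0.05 in edgeR, all lower (16.1% of all genes in either direction). The median log2 fold change was -0.14 over the members and 0 over all genes, and 73 of 77 were negative. This shift rested on cross 1, since the median of the members was -0.05 without its WT library of stage 26 (17 of 77 positive) and -0.03 without the cross (29 of 77 positive). At stage 26, 15 of 77 members lay below the WT libraries without overlap and 0 above (8.68% and 6.83% of all genes). At stage 34, 8 lay below and 0 above (7.53% and 9.43% of all genes). At any fold, 1 member passed the FDR, lower (background 5.6%, 4.27% lower), the small subunit gene rps7, which has a role in the assembly of its subunit. Its normalised counts were 28195, 25778 and 25428 in WT and 19686, 23187 and 21522 in KO embryos at stage 26, and 37796, 30600 and 21926 against 22602, 26755 and 21721 at stage 34. KO lay below WT in all 6 clutch-by-stage pairs, with a log2 fold change of -0.34 (SE 0.1, edgeR adjusted p = 0.074).

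The call of rps7 rested on cross 1. It was -0.17 (adjusted p = 0.86) without that cross and -0.32 (adjusted p = 0.16) without its WT library of stage 26, the one with the high share. The number of members lower in KO embryos was 0 without cross 1, 2 without cross 2 and 5 without cross 9. With clutch as a block, 5 members were lower, a share close to the 6.23% of all genes that were lower. They were rpl22l1 (log2 fold change -0.52, SE 0.11, adjusted p = 0.0025), rps7 (-0.33, adjusted p = 0.026), rpl35a (-0.31, adjusted p = 0.029), rps12 (-0.32, adjusted p = 0.029) and rps27a (-0.26, adjusted p = 0.082). All 5 lie on scaffold 5 of assembly v7.1, and the paper places t and t2 on chromosome 5. KO and WT siblings were sorted by genotype at t and t2. Alleles linked to these genes can therefore also differ between the groups, and their part was not tested.

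Without the block, rpl22l1 had a log2 fold change of -0.51 in KO against WT embryos (SE 0.16, adjusted p = 0.11, edgeR). Its normalised counts for crosses 1, 2 and 9 were 2947, 2387 and 1599 in WT, 1812, 2736 and 1710 in het and 1339, 2129 and 1678 in KO embryos at stage 26. They were 2139, 3377 and 2286, 1873, 2858 and 2117, and 1577, 2251 and 1455 at stage 34. KO was below WT in 5 of 6 pairs, with cross 9 at stage 26 the exception. For rpl10a the log2 fold change was -0.14 (SE 0.09, adjusted p = 0.6) and for rps9 -0.2 (SE 0.11, adjusted p = 0.5), and their WT and KO libraries overlapped at both stages.

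Members known from human disease or growth signalling gave small values. The genes rpl5 and rpl11, whose products join a small ribosomal RNA before assembly, had log2 fold changes of 0.04 and 0.09 in t/t2 MO against uninjected and -0.18 and -0.04 in KO against WT embryos. For rps19, mutated in Diamond-Blackfan anaemia, they were 0.12 and -0.11, and for rps6, the target of S6 kinases, 0.09 and -0.08. None of these 8 values passed the FDR.

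In het against WT embryos, 0 members were called and 0 passed the FDR at any fold (background 0.0222% for either rule). DESeq2 also called 0 (background 0.0556%), and 4 were lower at an unadjusted p under 0.05 in edgeR (1.68% of all genes in either direction). The median log2 fold change was -0.1 over the members and 0 over all genes, and that of the members was -0.01 without the WT library of cross 1 at stage 26 (33 of 77 positive).

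The effect of t/t2 MO against uninjected embryos was set against the effect of KO against WT embryos in a joint model of all 36 libraries. By this test of the difference, 0 members passed with 1.5-fold (background 8.85%) and DESeq2 called 0 (background 8.95%). In edgeR, 23 had an unadjusted p under 0.05 (27.6% of all genes). The median difference was 0.181 over the members and -0.034 over all genes, and 70 of 77 were positive. Without cross 1 the median of the members was 0.076 (59 of 77 positive). At any fold, 13 were higher and 2 lower in t/t2 MO (background 16.8%, 7.44% higher and 9.37% lower). The 2 lower were rpl10a (difference in log2 fold change -0.5, SE 0.11, adjusted p = 0.0032) and rps9 (-0.38, SE 0.14, adjusted p = 0.091). Among the 13, the largest difference was that of rps7 (0.5, SE 0.12, adjusted p = 0.0066), which rose in t/t2 MO and fell in KO embryos. The next largest were those of rps12 (0.37) and rpl35a (0.36). Like rpl22l1, these genes and rps7 lie on scaffold 5, and the paper places t and t2 on chromosome 5. Only the KO experiment sorted siblings by genotype there, and the part of linked alleles was not tested. The difference of rpl22l1 was -0.61 (SE 0.24, adjusted p = 0.12), and with clutch as a block it passed (-0.59, SE 0.16, adjusted p = 0.0098). The 13 depended on cross 1, since 0 were higher without it, 5 without its WT library of stage 26 and 25 without cross 9, and also on the frogs, with 8 higher without frog D and 1 when either frog E or frog F was left out.

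Most of the family rose with stage in uninjected embryos. There, 70 of 77 members were higher at stage 34 than at stage 26 and 0 lower at the FDR (background 56.2%, 29.4% higher and 26.9% lower). With 1.5-fold, 9 were called, all higher (background 31.9%, 19.9% higher). The median log2 fold change was 0.5 over the members and 0 over all genes, and 77 of 77 were positive.

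The 9 called members were rpl22l1 (log2 fold change 0.98, SE 0.21, adjusted p = 0.00083, edgeR), rplp0 (0.84, SE 0.09, adjusted p = 4.3e-07), rps12 (0.8), rplp2 (0.76), rpl10 (0.68), rplp1 (0.65), rpl21 (0.62), rpl14 (0.61) and rpl8 (0.6). The genes rplp0, rplp1 and rplp2 encode the acidic stalk that recruits translation factors, and rplp0 had 42960, 35502 and 30693 normalised counts at stage 26 and 68621, 64361 and 60234 at stage 34. The stages did not overlap. The number called was 33 without frog D, whose uninjected stage 26 library had the highest share of the 3, and 43 with total counts without TMM, which moved the median of all genes by 0.104.

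In WT embryos, 7 of 77 members were higher at stage 34 and 0 lower at the FDR (background 26.8%, 15.1% higher). Among them were rpl10 (log2 fold change 0.41), rpl7a (0.4), rps4x (0.37), rpl36a (0.37), rpl35 (0.34) and rps18 (0.31). With 1.5-fold 0 were called (background 17.4%), 9 had an unadjusted p under 0.05 in edgeR (35.5% of all genes) and DESeq2 called 0 (background 17.3%). The median was 0.16 over the members and -0.01 over all genes, with 68 of 77 positive. That of the members was 0.29 without the WT stage 26 library of cross 1, 0.25 without cross 1 and 0.05 without cross 2. The number that rose was 15 without the WT stage 26 library of cross 1, 3 without cross 1, 0 without cross 2 and 18 with total counts without TMM.

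**Figure D5:**
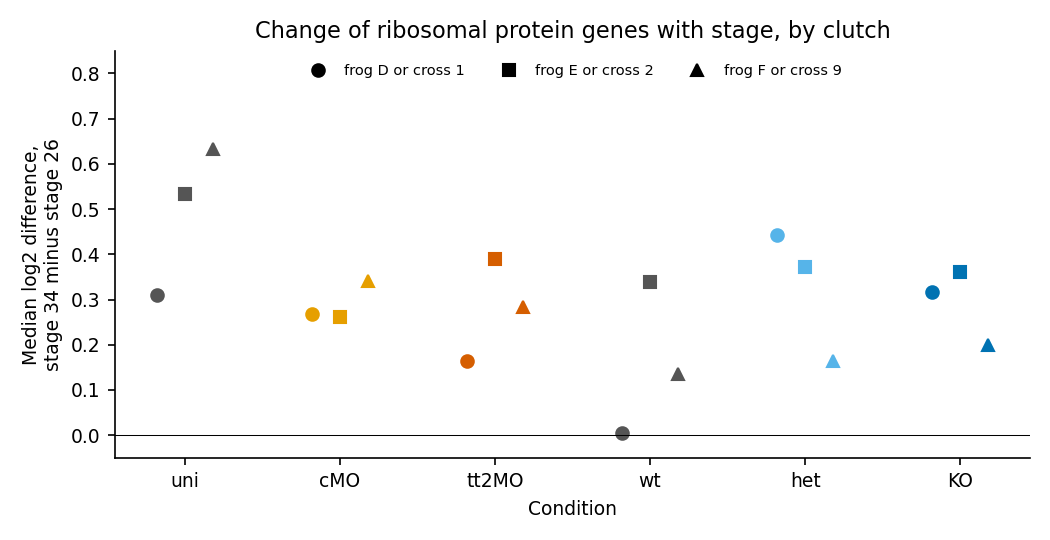
Median over 77 members of the log2 difference between stages 34 and 26 within a clutch, for the 3 clutches of each condition, with the clutch marked by the symbol. The medians are highest in uninjected embryos of frogs E and F (0.534 and 0.633), and that of WT cross 1 is at 0.00473.

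Within clutches, the median difference over the members was 0.309, 0.534 and 0.633 in uninjected embryos of frogs D, E and F and 0.00473, 0.338 and 0.136 in WT embryos of crosses 1, 2 and 9. In cMO embryos it was 0.268, 0.262 and 0.342, and in t/t2 MO embryos 0.164, 0.389 and 0.284. The het embryos had 0.443, 0.372 and 0.163, and the KO embryos 0.316, 0.36 and 0.2. All 18 medians were positive. The stage effect in uninjected minus that in WT embryos had a median of 0.33 over the members and 0.01 over all genes and was positive for 77 of 77. Without the WT stage 26 library of cross 1 the median was 0.2 (71 of 77 positive) and without cross 1 it was 0.21. Of the members, 0 passed the FDR (background 0.0667%), and DESeq2 called 0 (background 0.606%). In edgeR, 35 had an unadjusted p under 0.05 (10.4% of all genes). With clutch as a block, 3 were higher (background 2.07%), namely rplp0 (0.54, adjusted p = 0.052), rplp2 (0.64, adjusted p = 0.03) and rpl22l1 (0.88, adjusted p = 0.043). The experiments also differed in the blood markers, whose summed share over 10 genes found among 11 listed (9 above the count filter) went from 0.0551 to 0.101% at stage 26 to 0.258 to 0.327% at stage 34 in uninjected and from 0.0612 to 0.0913% to 0.104 to 0.202% in WT embryos. At stage 34 it was 0.356 to 0.453% in t/t2 MO and 0.221 to 0.349% in KO embryos. In the difference of stage effects, the blood markers had a median of 0.9 (1 higher at the FDR) and the notochord markers one of -0.52 (1 lower). The part of these markers in the stage effect was not tested.

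In the test of stage by t/t2 MO, 5 members had a lower effect at stage 34 and 0 a higher one at the FDR (background 9.79%, 5.34% lower), a share close to that of all genes. With 1.5-fold, 0 passed (background 5.59%). The median interaction was -0.231 over the members and -0.002 over all genes, and 4 of 77 were positive. At an unadjusted p under 0.05 there were 31 members in edgeR, all lower (23.3% of all genes in either direction), and DESeq2 called 0 (background 6.49%). For rpl10a the effect was -0.38 at stage 26 and -0.85 at stage 34, on the log2 scale within clutches (interaction -0.49, SE 0.13, adjusted p = 0.036). For rps9 it was -0.33 and -0.79 (interaction -0.48, SE 0.16, adjusted p = 0.089), and for rpl3 it was -0.03 and -0.45 (interaction -0.45, SE 0.1, adjusted p = 0.023). The interaction of rpl22l1 was -0.75 (SE 0.3, adjusted p = 0.18), and with clutch as a block it passed (-0.78, SE 0.2, adjusted p = 0.017). The others at the FDR were rps20, of the head of the small subunit (-0.39, adjusted p = 0.063), and rpl4, which lines the peptide tunnel (-0.32, adjusted p = 0.071). The number was 23 with clutch as a block (background 9.59% lower), 18 with DESeq2 (background 7.69% lower), 8 without frog D and 0 without frog E or without frog F. In the test of stage by KO, 0 members passed either rule (background 0.0278%), and DESeq2 called 0 (background 0.0667%). In edgeR, 1 had an unadjusted p under 0.05 (3.8% of all genes).

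The members also varied together among libraries of a group. For 70 members with a mean above 1000 counts, the deviations from the group means over 18 libraries correlated with those of the other members with a median r of 0.857 (KD) and 0.777 (KO), lowest for rpl14 (0.394) and rpl7a (0.197). The medians for other genes were 0 and -0.02. These correlations share libraries, normalisation and clutches, and they are given as a description. The ratio of large to small subunit fragments was 1.396 to 1.411 in uninjected, 1.38 to 1.394 in cMO and 1.358 to 1.377 in t/t2 MO embryos at stage 34, without overlap. At stage 26 it was 1.366 to 1.378 in uninjected, 1.36 to 1.368 in cMO and 1.344 to 1.36 in t/t2 MO embryos, where cMO overlapped the uninjected and met the t/t2 MO range, and the KO and WT ranges overlapped at both stages.

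Counts for genes that make ribosomes, and for ribosomal proteins of the mitochondrion, are given beside those of all genes, and no difference between lists was tested. Of 47 ribosome biogenesis factors, 37 fell and 1 rose in t/t2 MO against uninjected embryos at the FDR (23.8% and 17.8% of all genes), with a median log2 fold change of -0.29. Only 2 of them passed 1.5-fold, both lower. The fall was largest for noc2l (-0.86, SE 0.12, adjusted p = 1.3e-05, edgeR) and wdr75 (-0.61, SE 0.06, adjusted p = 2.7e-07), both of which act in the nucleolus, while the RNA helicase ddx21 rose (0.17, SE 0.06, adjusted p = 0.039). Of 72 mitochondrial ribosomal protein genes, a list added after values had been seen, 60 fell and 1 rose (median -0.35), 7 of them lower by 1.5-fold. In KO against WT embryos, 2 biogenesis factors and 4 mitochondrial ribosomal protein genes fell and none rose, shares close to the 4.27% of all genes that fell. In cMO against uninjected embryos 9 and 2 fell and none rose (2.13% of all genes fell). Of 22 other translation genes with terminal oligopyrimidine tracts, 2 rose and 3 fell with t/t2 MO (median -0.02). From stage 26 to 34 in uninjected embryos, 28 biogenesis factors fell and 1 rose, while 63 mitochondrial ribosomal protein genes rose and 1 fell (26.9% of all genes fell and 29.4% rose), with a median of 0.49 in the mitochondrial list. The stage effect in uninjected minus that in WT embryos had a median of 0.32 in the mitochondrial list, 0.1 in the biogenesis list and 0.01 over all genes. For stage by t/t2 MO the medians were -0.43, -0.22 and -0.002 in the same order. Shifts of the family in these 2 tests were thus partly shared with these lists.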

How the data were processed

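Per the labels and the study's methods, the authors sequenced unstranded poly(A) libraries, aligned pairs with Bowtie2 v2.1.0 to gene models and expressed sequence tag assemblies, and counted only pairs unique to 1 gene, so near-identical copies lose fragments. The deposited values are raw counts. Entries that name no gene (3: unaligned, ribosomal and mitochondrial RNA) were left out. They held 27.3 to 34% (unaligned), up to 0.462% and up to 0.0582% of all entries.

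Counts were TMM-normalised and tested in edgeR 4.0.16 (R 4.3.3) with Benjamini-Hochberg adjustment over the genes counted at least once (25209 KD, 24952 KO), in a model of stage and condition per experiment, of group means for stage and interactions, or of all 36 libraries. Genes above a mean of 7 normalised counts in unperturbed and control libraries (17987) were counted. FPKM used exon lengths of the deposited v7.1 annotation and TMM library sizes. Plots used matplotlib 3.10.9 and Python 3.11.15. Scripts were tested on simulated data.

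Same-numbered libraries share a mother or cross by label. Their deviations over all genes past the filter correlated with a mean r of 0.301 (KD) and 0.293 (KO), against -0.208 and -0.205 between clutches, over 45 and 108 pairs each. Over the members alone the values were 0.377 (KD) and 0.615 (KO), against -0.228 and -0.296. The main tests did not include clutch, which entered only as an alternative. The members of the family and the lists were chosen with earlier results of these data known. Named genes are paralogs, called members, the 3 largest rises and falls per comparison at the FDR with the same sign in 6 pairs, the highest and lowest core levels, and preset members. Those that carry a result are given, and a few genes are not reported here. Others (rpl12, rpl3, rps27a, rps16, rpl38, rps12, rpl35a, rps20 and rpl4, and the members named for stage) were named after their values were seen. Alternatives were other scalings and filters, DESeq2 1.42.0, the clutch block, an FDR of 1%, only the 2 conditions compared and omission of clutches. The difference of the stage effects, and the omission of single libraries, were added after seeing the data. No sequences are shown.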

Additional observations from a re-analysis of the deposited data

Results flagged for a closer look

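In 5 members the effect of t/t2 MO against uninjected embryos differed between the stages by edgeR's interaction test (adjusted p from 0.023 to 0.089), each lower at stage 34. This share of the members was close to the 5.34% of all genes that were lower, and it depended on single frogs, as given above. With clutch as a block and with DESeq2 more members were lower, a larger share than that of all genes in both. The differences in log2 fold change, stage 34 minus stage 26, were -0.49 for rpl10a, -0.48 for rps9, -0.45 for rpl3, -0.39 for rps20 and -0.32 for rpl4. Within clutches, rps20 had an effect of 0.05 at stage 26 against -0.31 at stage 34, and rpl4 had 0.25 against -0.04.

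In 15 of 77 members the effect of t/t2 MO against uninjected embryos differed from that of KO against WT embryos by edgeR's test in the joint model, as did 16.8% of all genes. The number higher in t/t2 MO depended on cross 1 and on the frogs, as given above. The difference in log2 fold change, t/t2 MO minus KO, was negative for rpl10a (-0.5) and rps9 (-0.38). It was positive for the others, among them rps7 (0.5), rps12 (0.37), rpl35a (0.36), rpl26 (0.35), rps15a (0.33), rps4x (0.29), rpl10 (0.29), rps16 (0.28), rpl4 (0.27), rpl13 (0.27), rpl13a (0.26) and rps2 (0.25). At stage 26 the within-clutch effect in t/t2 MO and in KO embryos was 0.3 and -0.3 for rps7, 0.27 and -0.26 for rpl26 and 0.21 and -0.17 for rps15a. At stage 34 it was 0.06 and -0.32, 0.05 and -0.11, and 0.09 and -0.18 in the same order. The experiments used different parents and were compared across separate sets of libraries, so experiment and method of perturbation cannot be told apart. The genes rps7, rps12 and rpl35a lie on scaffold 5, and the part of alleles linked to t and t2 in the KO embryos was not tested.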

How the results depend on the processing

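Of the single-gene values under the alternatives, 460 kept their direction and side of the threshold, 161 lost the threshold, 3 gained it and 0 reversed. They were the values past the FDR in the main fit, without those for stage in uninjected and WT embryos. Values of rpl22l1 for KO and for stage in uninjected embryos were added, and only that for KO could gain the threshold. The settings with no count filter and with an FDR of 1% reused the main fit and could reverse no direction. The falls of rpl22l1, rpl10a and rps9 with t/t2 MO against uninjected embryos stayed past the FDR under all of them. Where counts moved, the cause was not tested, apart from the stricter threshold of FDR of 1%. The counts of members below are given without the share of all genes under each setting, so they do not set the family apart from other genes. With total counts without TMM, the median of all genes itself moved by 0.075 for t/t2 MO against uninjected embryos and by 0.056 against cMO embryos. The medians of the members moved by 0.076 and 0.054. Depth limits the rows with few fragments, above all rpl3l.

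With total counts without TMM, members at the FDR were 0 lower for cMO, and for t/t2 MO against uninjected embryos 32 higher and 1 called, which was lower, 27 higher for t/t2 MO against cMO, 0 lower for KO, 43 called for stage in uninjected, 18 higher for stage in WT, 2 lower for stage by t/t2 MO and 1 lower for t/t2 MO minus KO. With median-of-ratios size factors, 8 were higher for t/t2 MO against uninjected embryos, 8 lower for stage by t/t2 MO and 1 lower for t/t2 MO minus KO, and TMM without ribosomal protein genes also gave 1 lower for the latter. With the filter before the fit, 26 were higher for t/t2 MO against uninjected, 27 higher against cMO and 1 lower for t/t2 MO minus KO. With no count filter, 1 was called for t/t2 MO against cMO.

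The DESeq2 test gave 12 higher for t/t2 MO against uninjected, 18 lower for stage by t/t2 MO and 1 lower for t/t2 MO minus KO. With clutch as replicate block, 5 were lower for KO, 23 lower (1 called) for stage by t/t2 MO, 1 called for t/t2 MO minus KO and 3 higher (2 called) for the difference of stage effects, and it moved no other count of members by over 1.5 times. At an FDR of 1%, 0 were lower for cMO, 0 higher for t/t2 MO against uninjected, 1 higher and 1 lower against cMO, 0 lower for KO, 0 higher for stage in WT, 0 lower for stage by t/t2 MO, and 1 higher and 1 lower for t/t2 MO minus KO. With only the 2 conditions compared, 0 were higher for t/t2 MO against uninjected and 0 lower for KO.

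Leaving out a clutch or a single library gave, for cMO, 0 to 1 called and 0 to 1 lower. For t/t2 MO against uninjected it gave 0 to 9 higher, and against cMO 0 to 1 called, 1 to 19 higher and 2 to 4 lower. It gave 0 to 1 called and 0 to 5 lower for KO, 7 to 33 called for stage in uninjected, and 0 to 2 called, 0 to 15 higher and 0 to 2 lower for stage in WT. It gave 0 to 1 called and 0 to 8 lower for stage by t/t2 MO, 0 to 2 called, 0 to 25 higher and 1 to 3 lower for t/t2 MO minus KO, and 0 to 1 called and 0 to 1 higher for the difference of stage effects. The mean family share of gene fragments, 4.722%, was 3.275% with a denominator of all entries of the table and 5.97% with a denominator without the 100 most abundant other genes.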

Other observations

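The expressed sequence tag row of rpl30 had 0 to 2 raw fragments in the libraries of cross 1 and 3 to 92 in those of crosses 2 and 9. Normalised counts of rpl32 also differed by clutch, with 138.8 to 264 in frog D and 3.1 to 66.9 in cross 1.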
